A study of Mus musculus with 6 samples.

Results

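The genes that mark the fibroblast subtypes of the lung, 10 of the 21999 genes counted, were followed in cultured lung microvascular endothelial cells (LMVEC) of Ptprz1+/+ and Ptprz1-/- mice. They were chosen by name as known markers of these subtypes, and no value of theirs entered the rule. Tcf21, Limch1, Inmt, Meox2 and Foxf2 mark alveolar fibroblasts, Gli1 and Hhip mark fibroblasts that respond to hedgehog, and Pi16, Dpp4 and Clec3b mark adventitial fibroblasts. All 10 were present in the table of counts, and 8 of the 10 passed the filter on low counts that precedes the test; Inmt and Gli1 did not.

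Total RNA was sequenced from 3 independent isolations of Ptprz1+/+ LMVEC and from 3 of Ptprz1-/- LMVEC, all untreated and from the SV129/B6 strain. Ptprz1 encodes a receptor-type tyrosine phosphatase, and the Ptprz1-/- mice are a knockout line of it, for which neither the labels nor the methods name a Cre driver. For each isolation, 2 to 5 mice aged between 3 and 8 weeks were pooled. The lungs were digested with collagenase, and the cells were grown in medium with endothelial growth supplement until the plate was confluent and then collected on magnetic beads carrying an antibody to CD31, the product of Pecam1. The deposited counts summed to between 16392715 and 17709663 reads in the Ptprz1+/+ libraries and to between 14496881 and 15601584 in the libraries labelled Ptprz1-/-. Ptprz1 itself was counted in all 6 libraries, at 11.9 to 101 CPM in Ptprz1+/+ LMVEC and at 59.1 to 90.6 CPM in those labelled Ptprz1-/-, so the directions given below rest on the labels. CPM are counts relative to a library size that was scaled by edgeR's TMM method.

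Alveolar fibroblasts lie in the walls of the air sacs beside the capillaries, and the lipid-bearing cells called lipofibroblasts are counted among them. Adventitial fibroblasts surround the larger vessels and airways. Hedgehog is a secreted ligand made by lung epithelium: it binds the receptor Ptch1, which then releases Smo, and Smo acts through the GLI transcription factors on target genes, among them Gli1, Hhip and Ptch1 themselves, so that Gli1 is commonly used to label the cells that receive the signal.

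The labelled cell type was checked on marker genes. The median of 12 blood endothelial genes was 0.242 to 0.631 FPKM in 4 of the 6 libraries, 9.63 FPKM in Ptprz1+/+ replicate 3 and 3.24 FPKM in Ptprz1-/- replicate 3, whereas the median of 10 general fibroblast genes was 84.3 to 152 FPKM. FPKM, as deposited by the authors, divide the count by the gene length and by the summed counts, and were used wherever levels of different genes are compared. In all 6 libraries the fibroblast median lay above the endothelial median, so these markers did not bear out the endothelial label. LMVEC is used below as the name that the labels give. None of the 12 endothelial genes was at 0 in any library. In bulk RNA, fewer cells of a type and less RNA per cell cannot be told apart, and this holds for every value below.

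Per length, the members fell into a group that was readily read and a group near the limit of reading. Clec3b had the highest median over the 6 libraries at 8.31 FPKM, with a range from 0.913 to 55.0. Foxf2 followed with a median of 7.69 FPKM (6.42 to 12.3), and then Limch1 with 6.70 FPKM (1.98 to 16.4) and Tcf21 with 5.53 FPKM (3.88 to 14.7). Pi16 had a median of 2.87 FPKM (0.765 to 6.34) and Dpp4 of 2.58 FPKM (0.847 to 16.3). Neighbours in this order overlapped in their ranges and so did not differ beyond the spread of the libraries, while the range of Foxf2 lay wholly above that of Pi16. Meox2 was lower, with a median of 0.739 FPKM (0.377 to 1.63), and its range lay below those of Foxf2, Limch1 and Tcf21. Inmt (0.0922 FPKM, 0 to 0.227), Hhip (0.0881 FPKM, 0.0259 to 0.186) and Gli1 (0.00884 FPKM, 0 to 0.0770) all lay below the range of Meox2 and overlapped each other. A single subtype did not account for the readily read genes, since both alveolar and adventitial members were among them, while both hedgehog-responsive members were in the low group.

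Between the genotypes, 0 of the 8 members tested passed an adjusted p of 0.05 by edgeR's quasi-likelihood test (Benjamini-Hochberg, over all genes), and 0 of 13609 genes (0%) did. At an unadjusted p under 0.05, 0 of the 8 members and 366 of the 13609 genes (2.69%) stood out. With DESeq2, 0 of the 8 members and 31 of 16398 genes (0.189%) were called, and with the likelihood ratio test of edgeR 0 of the 8 and 17 of 13609 (0.125%). The libraries of both genotypes overlapped for each of the 10 members, whereas they did not overlap in 991 of the 13609 genes (7.28%). The median log2 fold change of the 8 members, Ptprz1-/- against Ptprz1+/+, was 0.00033, with 4 above 0 and 4 below, beside -0.0047 over all genes tested, with 6685 above and 6924 below. In the sentences below the adjusted p of each tested member is 1.00 by edgeR's quasi-likelihood test, and SE is the standard error of the log2 fold change.

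**Figure D1:**
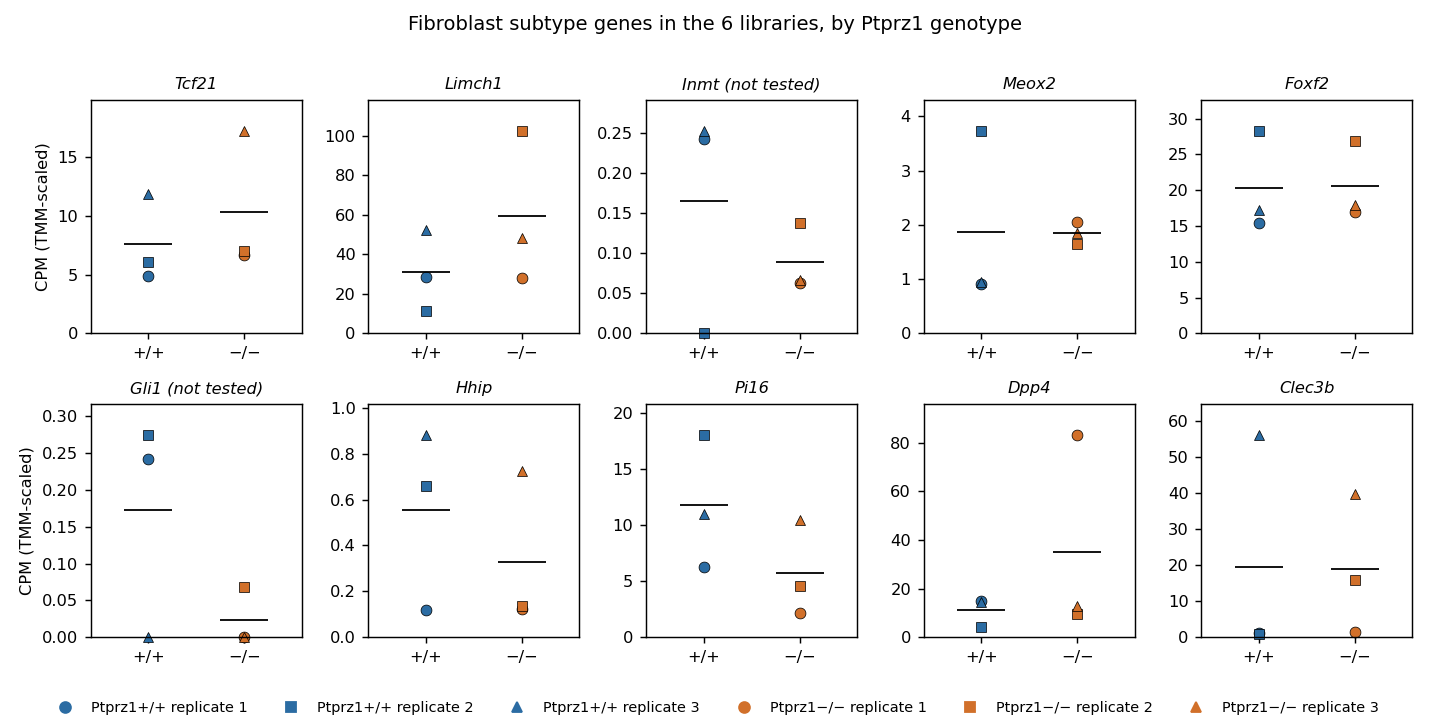
CPM (TMM-scaled, vertical axis from 0, a scale for each gene) of the 10 fibroblast subtype genes in the 3 Ptprz1+/+ libraries (blue) and the 3 libraries labelled Ptprz1-/- (orange), with the shape of the point giving the replicate number and the line the mean of 3. In every panel the genotypes overlap, and single libraries such as Ptprz1-/- replicate 1 for Dpp4 (83.2 CPM) lie far from the other libraries of their genotype.

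Tcf21 (ENSMUSG00000045680, chromosome 10 of GRCm38 from 22817279 to 22820128, minus strand) encodes a basic helix-loop-helix transcription factor of lung mesenchyme that is needed for lung development. Here and below, values are listed in the order of replicates 1, 2 and 3, and Tcf21 was at 4.83, 6.05 and 11.9 CPM in Ptprz1+/+ LMVEC and at 6.70, 7.0 and 17.2 CPM in the libraries labelled Ptprz1-/-. The value was highest in replicate 3 of each genotype, and the genotypes overlapped. The means were 7.58 ± 3.76 CPM and 10.3 ± 6.0 CPM (SD, n = 3 each), and the log2 fold change was 0.44 (SE 0.51, 95% interval -0.78 to 1.67). It turned to -0.15 without Ptprz1-/- replicate 3. The summed CPM of the 10 general fibroblast genes was also highest in replicate 3 of each genotype, at 26425 (Ptprz1+/+) and 28016 (Ptprz1-/-). In the other 4 libraries it was 11786 to 18972, with none of the 10 genes at 0. Col3a1 alone gave 12458 and 13911 CPM of the sums in replicate 3. The median of the 10 genes was not highest there, at 126 and 109 FPKM, against 84.3 to 152 FPKM in the other 4 libraries. Ptprz1+/+ replicate 2 held the highest CPM of 4 of the 10 genes, and replicate 3 of each genotype that of 2. The part of these genes in the Tcf21 values was not tested.

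Limch1 (ENSMUSG00000037736, chromosome 5 from 66745835 to 67057159, plus strand), which encodes an activator of nonmuscle myosin, was at 28.7, 11.4 and 52.4 CPM in Ptprz1+/+ LMVEC and at 27.8, 102 and 48.3 CPM in those labelled Ptprz1-/-. The highest value was that of Ptprz1-/- replicate 2, and the lowest was that of Ptprz1+/+ replicate 2. The means were 30.8 ± 20.6 and 59.5 ± 38.6 CPM (SD, n = 3 each), with a log2 fold change of 0.95 (SE 0.66, 95% interval -0.63 to 2.53). Without Ptprz1-/- replicate 2 it was 0.30, and without Ptprz1+/+ replicate 3 it was 1.57.

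Meox2 (ENSMUSG00000036144, chromosome 12 from 37108540 to 37179534, plus strand), a homeobox transcription factor, was read 15, 68 and 15 times in the Ptprz1+/+ libraries and 33, 24 and 28 times in those labelled Ptprz1-/-. The high value was that of Ptprz1+/+ replicate 2, and the 3 libraries labelled Ptprz1-/- lay between it and the other 2. In CPM the means were 1.86 ± 1.62 and 1.85 ± 0.200 (SD, n = 3 each), with a log2 fold change of -0.017 (SE 0.61, 95% interval -1.49 to 1.45). The sign turned without Ptprz1+/+ replicate 2, to 0.99, and without Ptprz1-/- replicate 2, to 0.060.

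Foxf2 (ENSMUSG00000038402, chromosome 13 from 31625816 to 31631403, plus strand), a forkhead transcription factor of mesenchyme and pericytes, was at 15.5, 28.3 and 17.3 CPM in Ptprz1+/+ LMVEC and at 17.0, 26.9 and 18.0 CPM in those labelled Ptprz1-/-. Replicate 2 was the highest of each genotype, and the other 4 libraries lay close together. The means were 20.4 ± 6.95 and 20.6 ± 5.46 CPM (SD, n = 3 each), and the log2 fold change was 0.018 with the narrowest interval of the 8 members (SE 0.30, 95% interval -0.70 to 0.74). It turned to -0.14 without Ptprz1+/+ replicate 1, to -0.086 without Ptprz1+/+ replicate 3 and to -0.22 without Ptprz1-/- replicate 2.

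Inmt (ENSMUSG00000003477, chromosome 6 from 55170626 to 55175043, minus strand), an N-methyltransferase that is abundant in whole lung, was counted 4, 0 and 4 times in the Ptprz1+/+ libraries and 1, 2 and 1 times in those labelled Ptprz1-/-. At these depths 3 counts correspond to 0.165 to 0.206 CPM, and no difference was detectable. Without the filter on low counts, its log2 fold change was -0.83 (adjusted p = 0.965, edgeR's quasi-likelihood test).

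Other alveolar fibroblast genes were followed beside the members, and 7 of 12 were tested. None had an unadjusted p under 0.05, 3 had a log2 fold change above 0 and 4 below, and their median was -0.082. Npnt, an integrin ligand of the basement membrane, was at 13.6 ± 9.76 CPM in Ptprz1+/+ LMVEC and 10.3 ± 6.46 in those labelled Ptprz1-/- (SD, n = 3 each). Its receptor subunit Itga8 was at 26.5 ± 23.0 and 19.3 ± 5.64 CPM, and the ligand Wnt2 at 0.988 ± 0.912 and 1.16 ± 0.613 CPM (SD, n = 3 each). The genotypes overlapped for each of these 3 genes. The 6 lipofibroblast genes were all tested, with 1 log2 fold change above 0, 5 below, a median of -0.62 and 0 genes at an unadjusted p under 0.05. Among them, the lipid droplet protein Plin2 was at 134.7 ± 39.0 and 126 ± 26.8 CPM, the regulator of fat storage Pparg at 5.62 ± 3.60 and 3.81 ± 1.19 CPM, and lipoprotein lipase, Lpl, at 508 ± 381 and 273 ± 189 CPM (SD, n = 3 each).

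Hhip (ENSMUSG00000064325, chromosome 8 from 79966115 to 80058006, minus strand) encodes a membrane protein that binds hedgehog ligands and holds the signal back, and its gene is itself a target of the pathway. It was read 2, 12 and 14 times in the Ptprz1+/+ libraries and 2, 2 and 11 times in those labelled Ptprz1-/-. In CPM this was 0.121, 0.660 and 0.883 against 0.124, 0.137 and 0.727. In Ptprz1+/+ replicate 1 and Ptprz1-/- replicates 1 and 2 it was under the level of 3 counts, and both genotypes had low and high libraries. The means were 0.555 ± 0.392 and 0.329 ± 0.344 CPM (SD, n = 3 each), and the log2 fold change was -0.74 (SE 0.93, 95% interval -2.99 to 1.5). It was -2.03 without Ptprz1-/- replicate 3 and -0.26 without Ptprz1+/+ replicate 3.

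Gli1 (ENSMUSG00000025407, chromosome 10 from 127329889 to 127341589, minus strand), the transcription factor that serves as a readout of the pathway, was counted 4, 5 and 0 times in the Ptprz1+/+ libraries and 0, 1 and 0 times in those labelled Ptprz1-/-. No read was counted in 3 libraries, 1 of them Ptprz1+/+, and the remaining counts were at most 5. In all, 9 reads were counted in the Ptprz1+/+ libraries and 1 in those labelled Ptprz1-/-. Without the filter on low counts its log2 fold change was -2.60 (SE 1.5, adjusted p = 0.923, edgeR's quasi-likelihood test), a value that rests on these few reads and on the prior count of the fit. Its exons share 62 bases with those of Arhgap9 on the opposite strand, which was itself counted 1 to 8 times, and the use of strand in the counting is not given in the sources used here.

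The sequence before the start of Hhip is shown because it is the hedgehog-responsive member that could be tested, and that of Ptch1 because it is a further target of the pathway, with more reads. The windows are the 250 bases before a RefSeq start on GRCm38.p6, chr8:80058009-80058258 and chr13:63565736-63565985, both on the minus strand and written 5′ to 3′ along the gene; no window is given for Gli1. The letters CCACCCA, the core of the motif bound by GLI proteins, were searched on both strands of the windows of 250 bases before to 50 after the start, and were found in neither gene, while 9.30% of all 32851 such windows hold them. Neither window holds TATAAA, which 13.6% of all windows do, and capitals would have marked a match. No match says only that these letters are not in the window. With 73.7% and 76.3% G and C over the 300 bases, both windows are richer in these bases than the median window of all genes (52.7%).
Hhip: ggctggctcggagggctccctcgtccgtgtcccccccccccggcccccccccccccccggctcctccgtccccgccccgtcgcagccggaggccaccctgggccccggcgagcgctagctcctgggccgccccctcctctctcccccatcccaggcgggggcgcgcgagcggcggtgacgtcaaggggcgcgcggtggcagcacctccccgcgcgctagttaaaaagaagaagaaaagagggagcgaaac
Ptch1: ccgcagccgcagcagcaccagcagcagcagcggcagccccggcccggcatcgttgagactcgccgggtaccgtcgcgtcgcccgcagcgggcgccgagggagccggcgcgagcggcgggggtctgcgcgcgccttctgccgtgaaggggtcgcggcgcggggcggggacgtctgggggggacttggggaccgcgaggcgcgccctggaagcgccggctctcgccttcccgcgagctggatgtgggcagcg

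The rest of the hedgehog pathway was read from a list of 14 genes, of which 13 were in the table; Shh was not used here. Of the 13, 11 were tested, 5 with a log2 fold change above 0 and 6 below, with a median of -0.0020. None was called by edgeR's quasi-likelihood test (adjusted p = 1.00 each), and 1 had an unadjusted p under 0.05, beside 2.69% of all genes tested.

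Of the ligands, Ihh had 1 read in all 6 libraries together and Dhh had 3 to 25 reads per library, and neither was tested. Hhat, which attaches a lipid to the ligand, was at 13.1 ± 2.72 CPM in Ptprz1+/+ LMVEC and 11.9 ± 2.07 in those labelled Ptprz1-/-, and Disp1, which releases the ligand from the cell, at 53.7 ± 17.1 and 53.6 ± 12.5 CPM (SD, n = 3 each). Hhat and Disp1 were read in every library, whereas Ihh was at 0 in 5 of the 6.

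The receptor Ptch1, also a target, was at 7.67, 20.4 and 16.5 CPM in Ptprz1+/+ LMVEC and at 9.61, 9.81 and 11.6 CPM in those labelled Ptprz1-/-. The Ptprz1-/- values lay inside the Ptprz1+/+ range, with means of 14.9 ± 6.52 and 10.3 ± 1.07 CPM and a log2 fold change of -0.53 (SE 0.36). Smo, the transducer, was at 154 ± 15.9 and 165 ± 32.7 CPM, a log2 fold change of 0.10 (SE 0.18), and overlapped between the genotypes.

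Boc, a coreceptor that helps hedgehog to bind, was the 1 gene of the list with an unadjusted p under 0.05. It was at 37.1, 23.7 and 40.0 CPM in Ptprz1+/+ LMVEC and at 43.5, 48.0 and 80.7 CPM in those labelled Ptprz1-/-. The 3 Ptprz1-/- libraries lay above the 3 Ptprz1+/+ libraries, as happened in either direction in 7.28% of the genes tested. The log2 fold change was 0.77 (SE 0.30, unadjusted p = 0.042, adjusted p = 1.00, edgeR's quasi-likelihood test). The other coreceptors overlapped between the genotypes, with Cdon at 67.7 ± 31.5 and 79.3 ± 17.7 CPM and Gas1 at 242 ± 113 and 266 ± 53.9 CPM (SD, n = 3 each).

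Downstream, the GLI inhibitor Sufu was at 38.5 ± 5.31 and 33.0 ± 3.32 CPM, and Kif7, a motor protein of the cilium that regulates GLI proteins, at 16.5 ± 1.30 and 15.5 ± 2.38 CPM (SD, n = 3 each). Gli2, the main activator, was at 9.60, 43.8 and 15.0 CPM in Ptprz1+/+ LMVEC and at 10.3, 11.4 and 22.8 CPM in those labelled Ptprz1-/-, with 1 high library, Ptprz1+/+ replicate 2, and a log2 fold change of -0.62 (SE 0.61). Gli3, which acts mainly as a repressor, was at 47.2 ± 6.70 and 48.6 ± 6.70 CPM, a log2 fold change of 0.040 (SE 0.16). Gli2 and Gli3 were thus read in every library in which Gli1 was at or near 0.

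**Figure D2:**
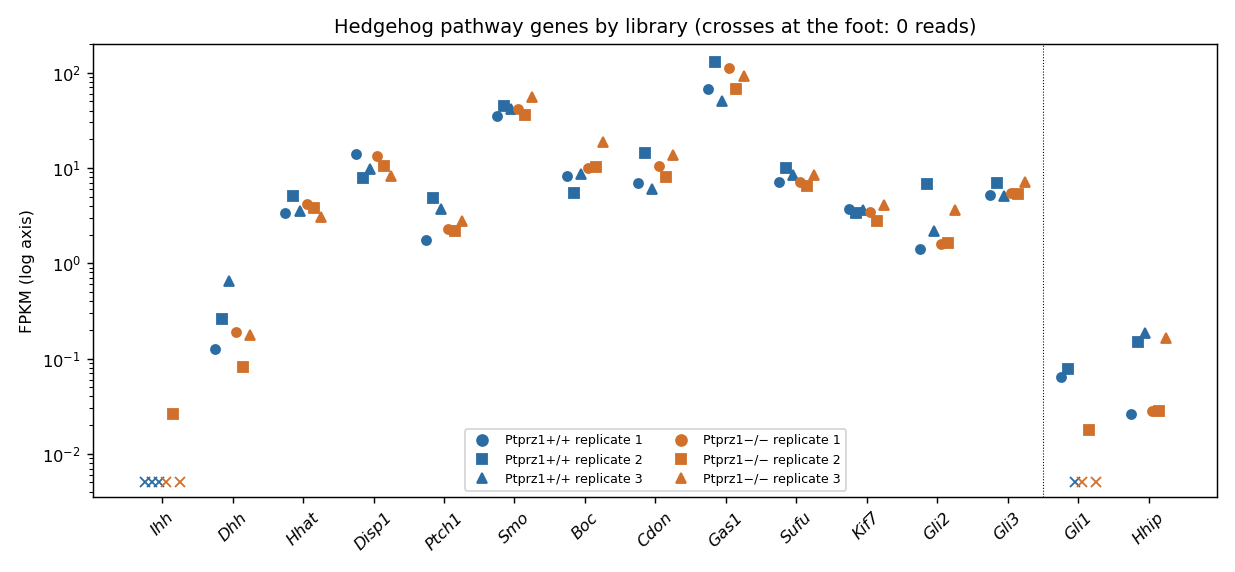
FPKM on a log axis of 13 hedgehog pathway genes and, right of the dotted line, the members Gli1 and Hhip, with 1 point per library (blue Ptprz1+/+, orange labelled Ptprz1-/-, shape for the replicate number) and crosses at the foot for libraries with 0 reads. Smo (35.3 to 56.1 FPKM) and Gli3 are read in every library, while the ligand Ihh and the targets Gli1 and Hhip lie under 0.2 FPKM. The ligand Dhh lies at 0.0823 to 0.645 FPKM and the target Ptch1 at 1.75 to 4.87 FPKM.

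Genes of hedgehog-zone fibroblasts and myofibroblasts completed this group. Of 10 such genes 7 were tested, 5 above 0 and 2 below, with a median log2 fold change of 0.61 and 0 at an unadjusted p under 0.05. The growth factor Fgf18 was at 5.66 ± 2.88 and 8.62 ± 1.86 CPM and the receptor gene Lgr6 at 3.01 ± 3.02 and 2.36 ± 0.814 CPM (SD, n = 3 each). Its relative Lgr5 had 1 to 10 reads per library and was not tested.

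Pi16 (ENSMUSG00000024011, chromosome 17 from 29318877 to 29329413, plus strand) encodes a secreted or membrane-bound peptidase inhibitor that marks adventitial fibroblasts across organs. It was at 6.28, 18.1 and 11.04 CPM in Ptprz1+/+ LMVEC and at 2.17, 4.60 and 10.4 CPM in those labelled Ptprz1-/-. The highest value was that of Ptprz1+/+ replicate 2 and the lowest that of Ptprz1-/- replicate 1, and the genotypes overlapped through Ptprz1-/- replicate 3 and Ptprz1+/+ replicate 1. The means were 11.8 ± 5.94 and 5.74 ± 4.25 CPM (SD, n = 3 each), with a log2 fold change of -1.04 (SE 0.63, 95% interval -2.57 to 0.49) and p = 0.20 by the exact two-sided permutation test, which cannot go below 0.10 with 3 libraries against 3. It kept its sign with each library left out, between -1.80 without Ptprz1-/- replicate 3 and -0.60 without Ptprz1+/+ replicate 2. Its exons share 222 bases with those of a gene on the opposite strand, AC162182.1, that was not counted separately.

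Dpp4 (ENSMUSG00000035000, chromosome 2 from 62330073 to 62412231, minus strand), the cell-surface peptidase also known as CD26, was at 14.9, 4.34 and 14.4 CPM in Ptprz1+/+ LMVEC and at 83.2, 9.47 and 12.7 CPM in those labelled Ptprz1-/-. One library, Ptprz1-/- replicate 1, lay far above the rest, and the other 2 libraries labelled Ptprz1-/- lay within the Ptprz1+/+ range. The means were 11.2 ± 5.96 and 35.1 ± 41.7 CPM (SD, n = 3 each), with a log2 fold change of 1.65 (SE 0.93, 95% interval -0.59 to 3.89). Without Ptprz1-/- replicate 1 the log2 fold change was -0.015. DESeq2 gave Dpp4 an unadjusted p of 0.044 and an adjusted p of 1.00, so that it passed the adjusted threshold in neither tool. Its exons share 232 bases with the antisense gene Gm13561, which was counted once in 6 libraries.

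Mesothelial genes were high in the same library as Dpp4. All 8 of a list of 8 had their highest CPM in Ptprz1-/- replicate 1, and 6 of the 8 had their lowest in Ptprz1+/+ replicate 2, where Dpp4 was also lowest. Their summed CPM was 63.6 to 242 in the Ptprz1+/+ libraries and 129 to 1522 in those labelled Ptprz1-/-, with the top value in replicate 1 and none of the 8 at 0. The defining gene Msln, mesothelin, was counted 446, 28 and 49 times in the Ptprz1+/+ libraries and 3283, 137 and 91 times in those labelled Ptprz1-/-. Upk3b, a uroplakin, was at 0.880 to 57.5 CPM and at 28.7 to 365 CPM, and Wt1, a transcription factor, at 14.9 to 32.7 CPM and at 18.3 to 117 CPM. The 8 log2 fold changes were all above 0 with a median of 2.40, and 0 were called. An unadjusted p under 0.05 was seen in 2 of the 8, beside 2.69% of all genes tested. The part of these genes in the Dpp4 values was not tested.

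Clec3b (ENSMUSG00000025784, chromosome 9 from 123150946 to 123157430, plus strand), which encodes the secreted plasminogen-binding protein tetranectin, was at 1.09, 0.880 and 56.3 CPM in Ptprz1+/+ LMVEC and at 1.36, 15.9 and 39.8 CPM in those labelled Ptprz1-/-. Replicate 3 was the highest of each genotype, Ptprz1-/- replicate 2 lay between, and the other 3 libraries were close to 1 CPM. Within the Ptprz1+/+ libraries the highest value was 64.1 times the lowest, and within those labelled Ptprz1-/- it was 29.2 times. The means were 19.4 ± 32.0 and 19.0 ± 19.4 CPM (SD, n = 3 each), and the log2 fold change was -0.028 with the widest interval of the 8 members (SE 1.69, 95% interval -4.09 to 4.04). It turned to 4.27 without Ptprz1+/+ replicate 3, to 0.52 without Ptprz1-/- replicate 1 and to 0.087 without Ptprz1-/- replicate 2, and it was -1.19 without Ptprz1-/- replicate 3. With both libraries numbered 3 left out, chosen after seeing the data, it was 3.13 (adjusted p = 1.00, edgeR's quasi-likelihood test).

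Blood endothelial genes were high in 2 of the libraries in which Clec3b was high. All 12 of a list of 12 had their highest CPM in Ptprz1+/+ replicate 3. Their summed CPM was 38.1, 40.6 and 598 in the Ptprz1+/+ libraries and 29.2, 24.2 and 199 in those labelled Ptprz1-/-, so that Ptprz1-/- replicate 2, at 15.9 CPM of Clec3b, had the lowest endothelial sum. Pecam1, the gene of the CD31 used for the beads, was counted 63, 80 and 1443 times and 22, 22 and 491 times, the junction gene Cdh5 58 to 3150 times and the VEGF receptor gene Kdr 19 to 339 times. The 12 log2 fold changes were all below 0 with a median of -1.43, and 0 had an unadjusted p under 0.05. The median of the 12 other adventitial fibroblast genes was 10.3, 16.3 and 39.1 FPKM in the Ptprz1+/+ libraries. In those labelled Ptprz1-/- it was 6.58, 16.1 and 53.8 FPKM, and so it too was highest in replicate 3 of each genotype. Of these 12 genes, 3 had their highest CPM in Ptprz1+/+ replicate 3 and 2 in Ptprz1-/- replicate 3. The part of either list in the Clec3b values was not tested.

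**Figure D3:**
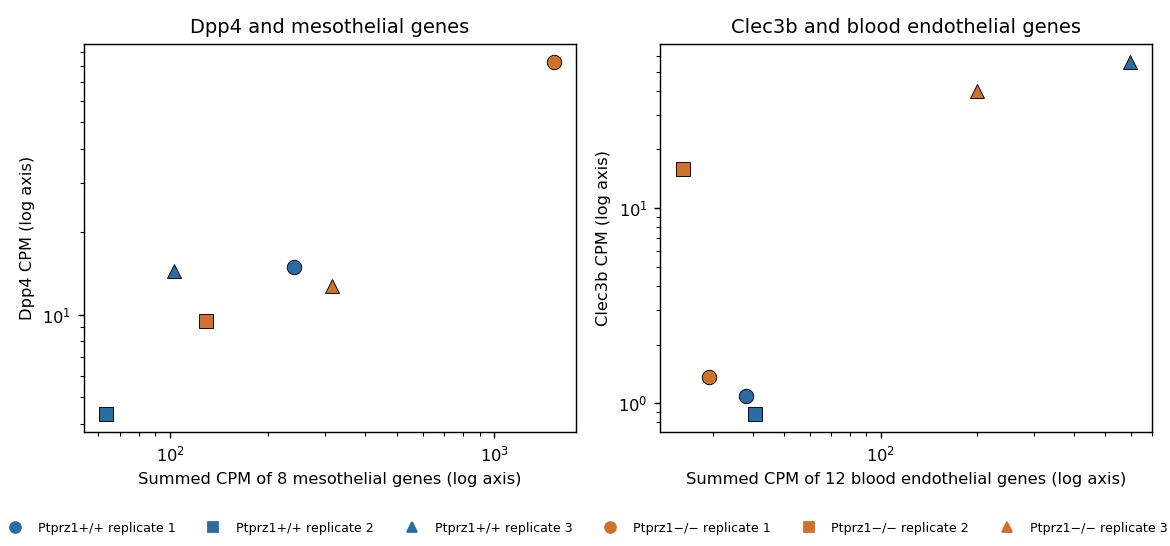
Left, Dpp4 CPM against the summed CPM of 8 mesothelial genes; right, Clec3b CPM against the summed CPM of 12 blood endothelial genes, both on log axes with 1 point per library (blue Ptprz1+/+, orange labelled Ptprz1-/-). Ptprz1-/- replicate 1 stands apart on both axes on the left (83.2 and 1522 CPM), and the 2 libraries numbered 3 do so on the right, where Ptprz1-/- replicate 2 has the lowest endothelial sum (24.2 CPM) and the next highest Clec3b after them.

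The adventitial markers did not keep a fixed ratio between the libraries. The ratio of Pi16 to Dpp4 in CPM was 0.421, 4.16 and 0.768 in the Ptprz1+/+ libraries and 0.0261, 0.486 and 0.823 in those labelled Ptprz1-/-, a 160-fold range. That of Clec3b to Dpp4 ranged 239-fold and that of Clec3b to Pi16 105-fold. The alveolar ratios of Tcf21 to Foxf2 and of Limch1 to Foxf2 ranged 4.49-fold and 9.48-fold. Both rest on Foxf2, the tested member with the smallest range over the libraries, and other alveolar pairs are not given. Across subtypes, the ratio of Pi16 to Tcf21 ranged 9.23-fold.

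The sequences before Pi16 and Dpp4 are shown because these adventitial markers had opposite extremes in Ptprz1-/- replicate 1, the lowest Pi16 and the highest Dpp4 of the 6 libraries. They are the 250 bases before the RefSeq start on GRCm38.p6, chr17:29318632-29318881 on the plus strand and chr2:62412232-62412481 on the minus strand, written 5′ to 3′ along the gene. Capitals mark TATAAA, the letters of the TATA box, which Dpp4 holds at position -227 from its start and Pi16 does not hold; 13.6% of all windows hold it on either strand. CCACCCA was found in neither. A match is a description of the letters and not of a working site. Of the 10 members, 8 had a window; Clec3b, like Gli1, had none. Among the other members with a window, Inmt holds TATAAA at positions -80 and -69, Meox2 at -29 on the opposite strand and 1 of the 3 Limch1 windows at -76 on the opposite strand, and CCACCCA was found in no window of a member.
Pi16: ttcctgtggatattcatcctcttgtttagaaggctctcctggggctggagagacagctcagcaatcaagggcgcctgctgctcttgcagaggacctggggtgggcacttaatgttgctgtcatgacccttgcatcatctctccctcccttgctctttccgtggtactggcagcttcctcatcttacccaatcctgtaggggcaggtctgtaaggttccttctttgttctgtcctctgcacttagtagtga
Dpp4: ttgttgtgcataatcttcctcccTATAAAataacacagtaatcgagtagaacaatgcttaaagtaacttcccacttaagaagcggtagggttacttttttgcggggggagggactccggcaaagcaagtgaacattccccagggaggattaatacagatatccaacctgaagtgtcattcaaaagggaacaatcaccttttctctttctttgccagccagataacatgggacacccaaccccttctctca

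The 12 other adventitial fibroblast genes were all tested, 5 with a log2 fold change above 0 and 7 below, with a median of -0.40. None was called, and 1 in each direction had an unadjusted p under 0.05 (edgeR's quasi-likelihood test). Of the 12, 1 did not overlap between the genotypes. Over all genes tested, 2.69% had such a p and 7.28% did not overlap, in either direction. Col14a1, a collagen of the fibril surface, was counted 174, 318 and 671 times in the Ptprz1+/+ libraries and 825, 804 and 1599 times in those labelled Ptprz1-/-. All 3 Ptprz1-/- libraries lay above the Ptprz1+/+ libraries, at 70.7 ± 30.3 against 23.4 ± 16.7 CPM (SD, n = 3 each), a log2 fold change of 1.59 (SE 0.56, unadjusted p = 0.027, adjusted p = 1.00). Dermatopontin, Dpt, was at 70.8 ± 90.8 and 36.5 ± 38.7 CPM, and the microfibril gene Mfap5 at 114 ± 26.4 and 130 ± 35.5 CPM (SD, n = 3 each), both with overlap between the genotypes. The chemokine gene Ccl11, chosen after its values were seen, was counted 14, 253 and 44 times and 1, 12 and 14 times, which overlapped at 14, with a log2 fold change of -3.27 (SE 1.23, unadjusted p = 0.035, adjusted p = 1.00, edgeR's quasi-likelihood test).

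**Figure D4:**
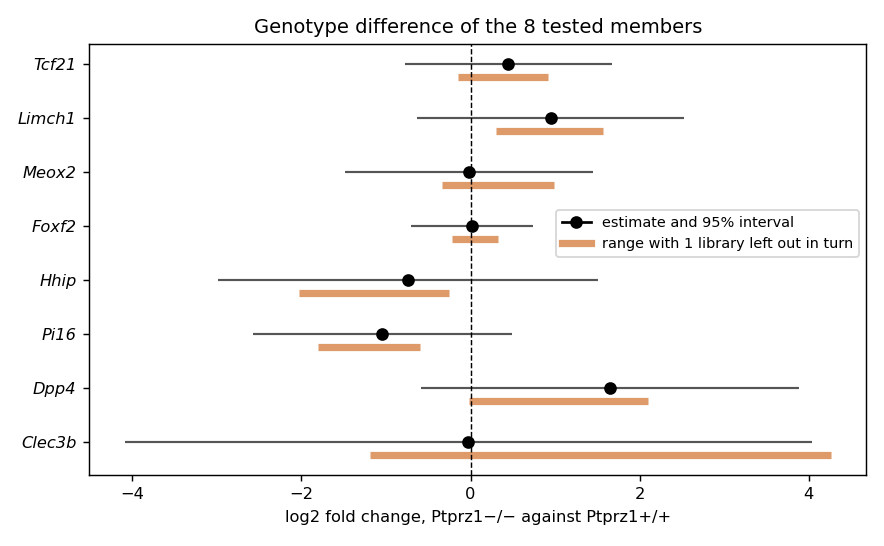
Log2 fold change of the 8 tested members, Ptprz1-/- against Ptprz1+/+, as point and 95% interval from edgeR's quasi-likelihood fit, with the orange bar giving the range when 1 library at a time was left out. Every interval spans 0; the bars of Limch1, Hhip and Pi16 stay on one side of 0, and that of Clec3b runs from -1.19 to 4.27.

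Members of the same subtype were not always alike in their pattern over the libraries. For each pair of the 8 members, the log2 CPM were centred on the mean of the 6 libraries. They were compared by their root mean square difference, where 0 is the same pattern. The centred values were not scaled, so this difference also grows with how widely each gene ranged. Over the libraries Clec3b ranged over 5.83 in log2 CPM, Dpp4 over 4.23 and Foxf2 over 0.87. The root mean square difference was lowest for Meox2 and Foxf2, both alveolar, at 0.48. Next came the hedgehog target Hhip and adventitial Pi16 at 0.56, and Tcf21 and Hhip at 0.64. The 3 pairs of adventitial members lay between 2.15 and 2.88, the 6 pairs of alveolar members between 0.48 and 1.43, and the 19 pairs of members of different subtypes between 0.56 and 2.76. These are descriptions over 6 libraries, in each of which the members share 1 depth and 1 mixture of cells.

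The libraries at the extremes differed between the members. Ptprz1+/+ replicate 2 held the highest CPM of 3 of the 8 tested members (Meox2, Foxf2 and Pi16) and the lowest of 3 (Limch1, Dpp4 and Clec3b). It also held the highest CPM of 10 of 10 proliferation genes, with Mki67 counted 4292 times against 163 to 656 times in the other 5 libraries and Top2a and Cdk1 likewise highest, at 209 and 59.8 CPM. The summed CPM of the list was 118 to 891 in the Ptprz1+/+ libraries and 124 to 243 in those labelled Ptprz1-/-, the median log2 fold change was -1.51 with 0 genes at an unadjusted p under 0.05, and its part in the members' values was not tested. Ptprz1+/+ replicate 1 held the lowest CPM of 4 members (Tcf21, Meox2, Foxf2 and Hhip). Against all genes tested, the SD of log2 CPM within a genotype was at the 99.9th percentile for Clec3b, the 96.6th for Dpp4 and the 66.3rd for Foxf2, and 7 of the 8 members were above the 80th.

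**Figure D5:**
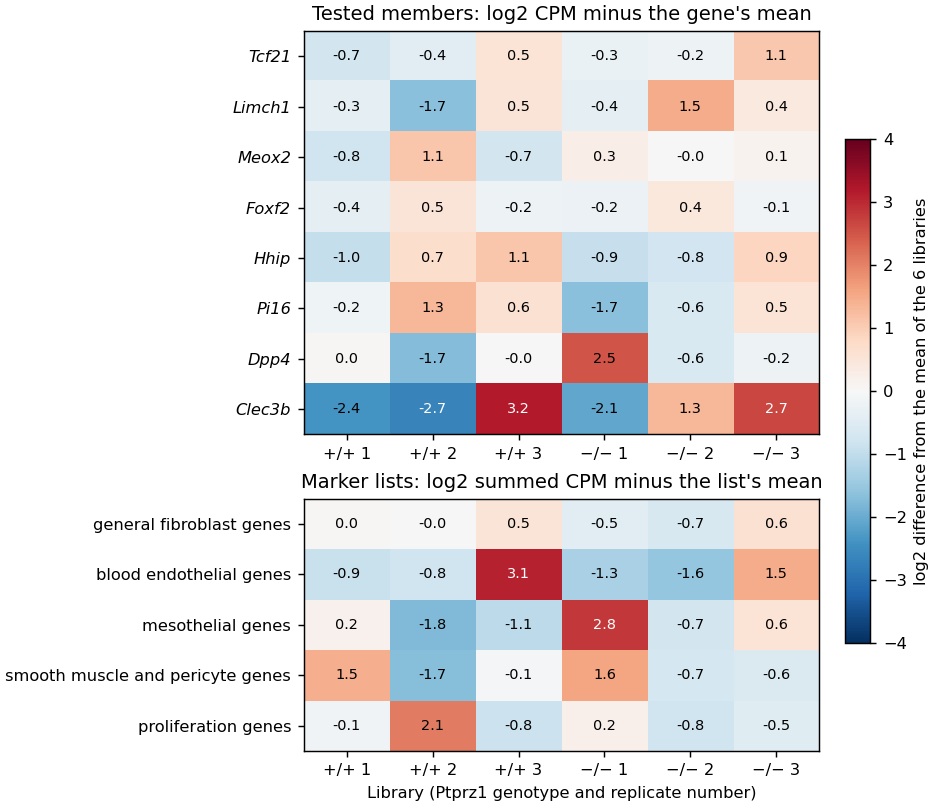
Colour and printed value give the log2 CPM of each tested member (top), and the log2 summed CPM of each marker list (bottom), minus the mean over the 6 libraries, with 1 column per library and red for above the mean. Dpp4 and the mesothelial list peak in Ptprz1-/- replicate 1, Clec3b and the blood endothelial list in Ptprz1+/+ replicate 3, and Meox2, Foxf2, Pi16 and the proliferation list in Ptprz1+/+ replicate 2.

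By the same measure, the genes outside the list most like each member over the 6 libraries were named. For Tcf21 they were Pcdhb13 (0.15), Gm9987 and E530011L22Rik, for Limch1 Fam124a (0.16), Btg2 and P2rx3, and for Meox2 Tube1 (0.11), 3632451O06Rik and Bmp5. For Foxf2 they were Ccdc74a (0.071), Nav1 and Notch2, and for Hhip Adamts4 (0.20), Cadm1 and Fap. For Pi16 they were Opcml (0.19), Rassf2 and Spsb4, for Dpp4 Itga3 (0.32), Ezr and Pard6b, and for Clec3b Wfdc17 (0.72), Bmp3 and Wfdc18, which were less close than for any other member.

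General fibroblast genes were high in both genotypes. All 10 were tested, with 1 log2 fold change above 0, 9 below and a median of -0.54, and 0 were called. Col1a1, Col1a2 and Col3a1, the chains of the fibrillar collagens I and III, were at 5502 ± 619, 4534 ± 469 and 8296 ± 3660 CPM in Ptprz1+/+ LMVEC and at 3888 ± 1444, 4200 ± 1561 and 7526 ± 5533 CPM in those labelled Ptprz1-/- (SD, n = 3 each), and overlapped between the genotypes. Thy1, a surface protein, and Postn, periostin, chosen after their values were seen, had an unadjusted p under 0.05 and no overlap. Thy1 was at 263 ± 44.0 and 145 ± 35.3 CPM and Postn at 30.0 ± 10.5 and 15.5 ± 2.65 CPM (SD, n = 3 each). Fbln1, likewise chosen, did not overlap either, at 252 ± 32.8 and 170 ± 66.3 CPM (unadjusted p = 0.12, edgeR's quasi-likelihood test). Over all genes tested, 2.69% had an unadjusted p under 0.05 and 7.28% did not overlap, in either direction.

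Of the transcription factor genes of lung mesenchyme, 11 were in the table and 10 were tested, 7 above 0 and 3 below with a median log2 fold change of 0.13, 0 called and 2 at an unadjusted p under 0.05. Tbx4, a T-box factor of lung mesenchyme, was counted 139, 416 and 113 times in the Ptprz1+/+ libraries and 484, 414 and 522 times in those labelled Ptprz1-/-. In CPM the genotypes did not overlap, at 12.8 ± 8.74 against 31.0 ± 3.14 (SD, n = 3 each), a log2 fold change of 1.27 (SE 0.45, unadjusted p = 0.029, adjusted p = 1.00, edgeR's quasi-likelihood test). The other gene was Tbx2, chosen after its values were seen. It was at 10.6 ± 3.23 against 28.6 ± 6.68 CPM (SD, n = 3 each), without overlap and not called. Its log2 fold change was 1.43 (SE 0.28, unadjusted p = 0.0017, edgeR's quasi-likelihood test). Of all genes tested, 2.69% had an unadjusted p under 0.05 and 7.28% did not overlap, in either direction. Tbx5 was at 23.4 ± 3.68 and 26.4 ± 6.78 CPM and Foxf1, a relative of Foxf2, at 58.1 ± 6.76 and 73.2 ± 18.7 CPM (SD, n = 3 each), and both overlapped between the genotypes.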

How the data were processed

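RNA of 3 Ptprz1+/+ and 3 Ptprz1-/- LMVEC isolations had been sequenced from standard Illumina libraries. The authors deposited the counts of reads per gene and library, not normalized, with FPKM that equal the count divided by gene length and summed counts. The authors' mean signal, log2 fold change, p-value and adjusted p-value were not used. The submitters' processing notes name STAR, HTSeq, TopHat, DESeq2, edgeR, GRCm38 and mm10; the role of each tool, the annotation release and the use of strand are not given in the sources used here. Positions are those deposited; 98.9% of the gene IDs are in GENCODE M21.

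With edgeR 4.0.16 (R 4.3.3), genes that passed filterByExpr were scaled by TMM and fitted on genotype alone by glmQLFit and glmQLFTest. Calls needed a Benjamini-Hochberg adjusted p under 0.05. The SE is the size of the log2 fold change over the square root of F. For single values an exact two-sided permutation test was used. Log2 CPM used a prior count of 2. The functions were tested on simulated counts. Alternatives were DESeq2 1.42.0, limma 3.58.1 voom, the likelihood ratio test, other scalings and filters, each library left out and a replicate block. All 6 libraries differed in their counts. Replicates are separate isolations of pooled mice, so that p-values cover the spread between isolations. Depth was 14496881 to 17709663 counts, and 3 counts equal 0.165 to 0.206 CPM; such floors cover counting error only.

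The members and the lists (alveolar, lipofibroblast, hedgehog pathway, hedgehog-zone, adventitial, general fibroblast, mesenchymal transcription factor, blood and lymphatic endothelial, smooth muscle, mesothelial, epithelial, leukocyte and proliferation genes) were chosen with earlier results of these data known. The text names all members, the first 3 genes of each list, every hedgehog pathway gene but 1, which was left out of that list and is not reported here, and the 3 genes most like each member; other names were chosen after their values were seen. Promoter sequences come from RefSeq (GRCm38.p6).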

Additional observations from a re-analysis of the deposited data

How the results depend on the processing

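The number of genes called was 0 by edgeR's quasi-likelihood test, with limma voom (342 at an unadjusted p under 0.05), with the replicate block, with upper-quartile scaling, without the filter and with a minimum of 10 counts in each library, and from 0 to 0 with each library left out (312 to 676 unadjusted, the latter without Ptprz1+/+ replicate 1). It was 31 with DESeq2 and 17 with the likelihood ratio test. The number of members called was 0 under each of these settings, and the number whose genotypes do not overlap was 0 under 4 scalings. Beside the fits that left out 1 library, 55 of 62 values of single members kept their direction and side. The exceptions were Clec3b at 1.35 with limma voom, 1.13 with the replicate block and 3.13 with both libraries numbered 3 left out, Meox2 at 0.28 with limma voom, 0.0012 with no filter and 0.29 with the replicate block, and Foxf2 at -0.0038 with upper-quartile normalization; the cause was not tested. With each library left out, the log2 fold change ranged from -1.19 to 4.27 for Clec3b, from -0.015 to 2.10 for Dpp4, from -0.22 to 0.33 for Foxf2, from -0.34 to 0.99 for Meox2, from -0.15 to 0.92 for Tcf21, from -2.03 to -0.26 for Hhip, from 0.30 to 1.57 for Limch1 and from -1.80 to -0.60 for Pi16, and the adjusted p of the members stayed at or above 0.80 over all settings. With that minimum Hhip was not tested. The labels do not say what a replicate number stands for. Over 13609 genes the deviations from the genotype means correlated at 0.45, -0.058 and 0.52 between the same numbers. Across numbers 1 and 3 they correlated at -0.46 and -0.57. Replicates 1 and 3 thus correlated best with their own number, while Ptprz1+/+ replicate 2 did not. These values do not decide whether the numbers pair the samples. The replicate block gave 690 genes at an unadjusted p under 0.05 and 0 called. Depth limits Inmt, Gli1 and Hhip, which rest on at most 14 reads per library.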

Other observations

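Further cell types were read on their own marker lists, and the part of these genes in the members' values was not tested. All 10 smooth muscle and pericyte genes were tested, 5 with a log2 fold change above 0 and 5 below, with a median of -0.031 and 0 at an unadjusted p under 0.05. Their summed CPM was 3743, 421 and 1302 in the Ptprz1+/+ libraries and 4081, 840 and 917 in those labelled Ptprz1-/-. The sums were high in replicate 1 of each genotype mainly through Acta2 (2157 and 1636 CPM there) and Tagln (1349 and 1875 CPM). The highest sum, in Ptprz1-/- replicate 1, and the lowest, in Ptprz1+/+ replicate 2, were in the same libraries as the extremes of Dpp4. The list did not move as a whole. In Ptprz1-/- replicate 1, 3 of the 10 genes had their highest CPM and 5 their lowest, namely Cspg4, Rgs5, Kcnj8, Notch3 and Abcc9. The contractile genes Myh11 and Acta2 were at 22.2 ± 23.2 and 1002 ± 1039 CPM in Ptprz1+/+ LMVEC and at 26.3 ± 15.5 and 778 ± 743 CPM in those labelled Ptprz1-/-, and Cnn1 at 29.2 ± 38.8 and 35.6 ± 42.8 CPM (SD, n = 3 each).

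Of 5 lymphatic endothelial genes, 4 had their highest CPM in Ptprz1+/+ replicate 3, where Clec3b was also highest, and their summed CPM was 123 there against 23.1 to 67.4 in the other 5 libraries. Of the 5, 1 had a log2 fold change above 0 and 4 below, with a median of -1.46. An unadjusted p under 0.05 was seen in 1 of the 5, beside 2.69% of all genes tested. Prox1, the lymphatic master regulator, was counted 8 to 72 times, the hyaluronan receptor gene Lyve1 13 to 615 times, with the most in Ptprz1+/+ replicate 3, and the VEGF-C receptor gene Flt4 273 to 1021 times. Of 8 epithelial genes, 1 was tested, and Epcam had 0 to 8 counts, Cdh1 0 to 6 and Sftpc 0 to 2. Of 5 leukocyte genes, 3 were tested, all below 0 with a median log2 fold change of -1.0 and 1 at an unadjusted p under 0.05; Ptprc had 1 to 9 counts, Cd68 25 to 109 and Lyz2 91 to 635.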
